A study of Mus musculus with 59 samples.

Results

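The libraries described here are those of WT-labelled mice that had received fluoxetine or vehicle, with both sexes pooled. They were chosen by their labels alone: 10 fluoxetine libraries (5 female, 5 male) against 10 vehicle libraries (5 female, 5 male), which is 20 of the 59 libraries in the series. All mice were C57BL/6J, and RNA came from prefrontal cortex taken at postnatal day 25. The pups had been dosed through maternal milk from day 3 to day 24, so the amount each pup took in is not known from the sources used here. Mice labelled HT for the Chd8-S62X allele, heterozygous by that label, are used below for comparison (9 fluoxetine and 10 vehicle libraries), and 10 further WT-labelled libraries came from lithium-treated mice. Libraries of HT-labelled mice given lithium complete the 59. They are in no comparison here but help to estimate the spread that limma shared over all 59. Neither dam nor litter is named in the labels, so drug and litter cannot be told apart. The p-values measure the spread between libraries, in limma over all 59 unless stated otherwise.

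Fluoxetine is a selective serotonin reuptake inhibitor. It blocks the serotonin transporter, which returns released serotonin into the endings of neurons whose cell bodies lie in the raphe nuclei of the brainstem and whose fibres reach the whole cortex. The prefrontal cortex expresses many serotonin receptors, and in the mouse the weeks before weaning are a period of synapse formation and myelination there. The comparison asks which transcripts differ at the end of such an exposure in WT-labelled mice.

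Values are normalized counts: estimated reads per gene divided by a factor for each library, so that libraries are on 1 scale. They summed to 31.5 to 33.5 M per library, with an estimated depth of 27.9 to 36.7 M reads. Chd8, the gene of the allele, ranged from 5115 to 6626 in the 29 HT-labelled libraries and from 2828 to 4229 in the 30 WT-labelled ones, which goes against a nonsense allele that lowers its own RNA, so genotypes are named as labelled. In the comparison here both groups carry the WT label, and Chd8 averaged 3562 ± 400 with fluoxetine and 3586 ± 194 with vehicle (SD, n = 10 each, log2 difference −0.016 ± 0.047 SE, limma adjusted p = 0.913). Excitatory neuron markers of the cortex were present in every library, with Slc17a7, the vesicular glutamate transporter of cortical neurons, between 42267 and 57063 with fluoxetine and between 40711 and 52115 with vehicle. Markers of neighbouring tissue varied: averaged on the log2 scale, 5 markers of the olfactory bulb ran from 4.42 to 9.92 with fluoxetine and from 4.81 to 10.2 with vehicle, and striatal markers stood apart in fluoxetine female replicate 1 (9.11) and vehicle female replicate 5 (9.82), against 7.81 to 8.45 in the other 18 libraries.

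Fluoxetine was followed by small differences in few genes. Transcripts for the ribosomal proteins Rpl14, Rpl21 and Rps15, the membrane-remodelling protein Chmp2a and the lactate transporter chaperone Bsg rose modestly (1.10- to 1.15-fold), Tmem114 and Parp3 rose by more, and the transcription regulators Ncoa6, Nfia and Cdc73 fell. In all, 32 of 16839 genes tested passed limma's adjusted p of 0.05 (18 higher, 14 lower). That is 0.19% of the genes, 0.107% higher and 0.0831% lower. At an unadjusted p under 0.05 there were 2104 genes (12.5%), 1116 higher (6.63%) and 988 lower (5.87%). All genes had a median log2 fold change of −0.0031, and 48.6% lay above 0. The 32 genes lay on the same side of 0 in females and in males, which choosing them on the mean of both sexes favours. The spread in this fit was shared over all 59 libraries. When the 20 libraries were fitted alone, limma called 0 genes (2321 at an unadjusted p under 0.05), and the 32 genes had adjusted p from 0.0584 to 0.166.

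Gm43039, a gene model with no assigned product on the minus strand of chromosome 5 (91958000 to 91958962 in GRCm38, within the gene Rchy1 on the same strand), had 10.2 to 24.3 normalized counts with fluoxetine (median 18.2), against 24.8 to 44.7 with vehicle (median 31.7). Every fluoxetine library lay below every vehicle library. It fell by 0.84 ± 0.14 on the log2 scale (adjusted p = 0.00160). Because it shares a strand with Rchy1, its reads cannot be told apart from intronic or read-through RNA of that gene.

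Chmp2a (chromosome 7, 13032010 to 13034807, minus strand) encodes a subunit of ESCRT-III, the complex that pinches off membrane necks in endosome sorting, cell division and membrane repair. It ranged from 1737 to 1913 with fluoxetine (median 1796) and from 1556 to 1754 with vehicle (median 1641). All 10 fluoxetine libraries were above the vehicle median, and 1 vehicle library, female replicate 3, lay above 1 fluoxetine library, male replicate 4. The gene rose by 0.14 ± 0.025 (1.10-fold, adjusted p = 0.00741). Of 13 ESCRT-III and Vps4 genes on a list, 12 had enough counts to test, Chmp4c being left out. Chmp2a alone was called, 8 lay above 0, 4 had an unadjusted p under 0.05, all of them higher, and the list's median was 0.034. The next member was Chmp6 with 0.11 ± 0.037 (adjusted p = 0.157).

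Bsg (chromosome 10, 79704491 to 79711969, plus strand) encodes basigin, a membrane glycoprotein that brings the lactate transporters to the cell surface. It stood at 12327 to 13454 with fluoxetine (median 12721) and 10933 to 12375 with vehicle (median 11383). A single vehicle library, male replicate 1, reached the fluoxetine range. The difference was 0.15 ± 0.028 (1.11-fold, adjusted p = 0.00741).

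Ncoa6 (chromosome 2, 155390656 to 155473894, minus strand), a coactivator of nuclear receptors, had 2454 to 2781 with fluoxetine (median 2618) and 2826 to 3072 with vehicle (median 2918). The groups did not overlap. It fell by 0.16 ± 0.031 (adjusted p = 0.0108). Over all tested genes 4 (0.0238%) had no overlap between the 10 fluoxetine and 10 vehicle libraries. They were Gm43039, Ncoa6, Cox4i1, which encodes a subunit of cytochrome c oxidase and had 11596 to 12507 against 9452 to 11559, and Npat, a regulator of histone gene transcription, with 704 to 799 against 799.2 to 940. Cox4i1 and Npat were named after their values were seen and were not called (adjusted p = 0.0711 and 0.108).

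Tmem114 (chromosome 16, 8409275 to 8425136, minus strand), which encodes a transmembrane protein, had 64.0 to 120 with fluoxetine (median 90.3) and 29.3 to 68.1 with vehicle (median 56.4). Of the called genes it rose the most, by 0.72 ± 0.14 (1.65-fold, adjusted p = 0.0108). BC055308, a gene model with no assigned product inside Fam174a on the same strand of chromosome 1 (95328681 to 95331218), fell the most, by 0.91 ± 0.18. It had 3.56 to 18.8 with fluoxetine (median 14.8) and 15.7 to 33.3 with vehicle (median 21.7, adjusted p = 0.0137). At such low counts single reads weigh heavily, and the log2(value + 1) scale understates the change.

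**Figure D1:**
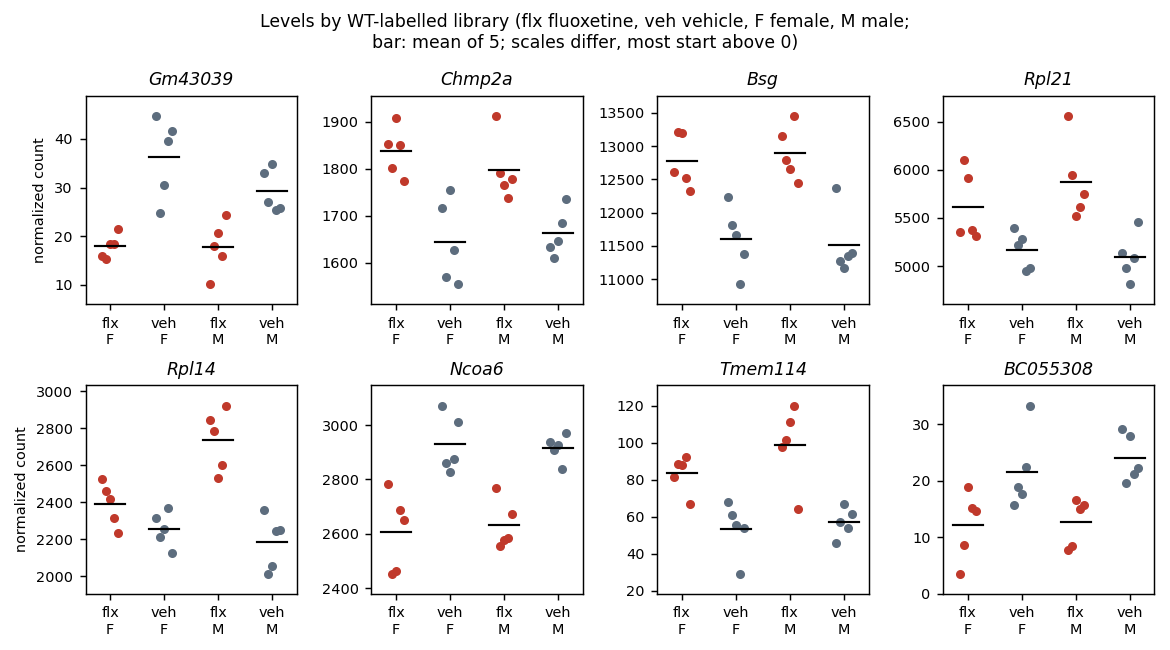
Normalized counts of the 8 genes with the smallest adjusted p in each WT-labelled library, fluoxetine in red and vehicle in grey, females left and males right in each panel. Bars are means of 5 libraries. Gm43039 and Ncoa6 have no fluoxetine library within the vehicle range, and Rpl14 has 0.083 in females and 0.33 in males (test of the difference, limma adjusted p = 0.864).

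These 7 genes, Gm43039, Chmp2a, Bsg, Rpl21, Rpl14, Ncoa6 and Tmem114, were called whichever of the 20 libraries was left out, and BC055308 missed only without fluoxetine male replicate 2. The other 24 called genes each lost the call without 6 to 17 single libraries, with adjusted p up to 0.139, while no log2 fold change moved by more than 0.076. The number of called genes itself depended on single libraries. It was 9 to 21 without fluoxetine female replicate 1, 2, 3 or 4, fluoxetine male replicate 1, 2 or 4, vehicle female replicate 4 or 5 or vehicle male replicate 2, 3, 4 or 5, and 27 to 37 without fluoxetine female replicate 5, fluoxetine male replicate 3 or vehicle female replicate 1, 2 or 3. It was 52 without vehicle male replicate 1 and 230 without fluoxetine male replicate 5.

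Among called genes of RNA handling and protein synthesis, 3 ribosomal protein genes rose. Rpl14, of the large subunit, ranged from 2236 to 2923 with fluoxetine (median 2528) and from 2015 to 2370 with vehicle (median 2247), a rise of 0.20 ± 0.039 (adjusted p = 0.0108). Rpl21, also of the large subunit, ranged from 5310 to 6562 (median 5681) and from 4816 to 5459 (median 5111) in the same order, a rise of 0.16 ± 0.030 (adjusted p = 0.00927). Rps15, of the small subunit, rose by 0.17 ± 0.039 (5174 ± 380 with fluoxetine, 4601 ± 196 with vehicle, adjusted p = 0.0474). Edf1, a ribosome-associated factor and transcriptional coactivator, rose by 0.16, Pop7, a subunit of the RNA-processing ribonucleases P and MRP, by 0.20, and Pcbp1, a poly(C)-binding protein, by 0.12. Lars, the cytosolic leucyl-tRNA synthetase, fell by 0.39 ± 0.092 (1150 ± 245 with fluoxetine, 1491 ± 183 with vehicle). Celf1, a regulator of splicing and mRNA decay, and Rc3h1, which encodes the mRNA-decay factor roquin, each fell by 0.13. Processed pseudogenes nearly identical to ribosomal protein genes make each such value uncertain.

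Among called genes of transcription and genome maintenance, Nfia, a transcription factor of glial and neuronal differentiation, fell by 0.25 ± 0.054 (1197 ± 108 with fluoxetine, 1425 ± 115 with vehicle). Cdc73, a subunit of the PAF1 elongation complex, fell by 0.25 ± 0.054 (1501 ± 172 and 1780 ± 190 in the same order), with −0.10 in females and −0.40 in males. Zfp982, a zinc finger gene, fell by 0.49 ± 0.11 (51.6 ± 10.8 with fluoxetine, 72.3 ± 11.4 with vehicle). Parp3, an ADP-ribosyltransferase of DNA repair, rose by 0.54 ± 0.12 (135 ± 15 and 94.9 ± 25.9), and Wrnip1, a partner of the Werner helicase, by 0.14. The spans of Nfia, Cdc73, Parp3 and Tubgcp4 (below) each overlap that of another tested gene on the opposite strand. Whether their exons overlap was not checked, and whether the quantification used strand is not given in the sources used here. Reads of such a pair may therefore be mixed where exons are shared. Of other PAF1 complex genes none passed the test: Ctr9 had −0.095, Paf1 −0.053, Wdr61 −0.030, Rtf1 −0.022 and Leo1 0.11 (adjusted p from 0.215 to 0.820). On the list of 24 elongation factors, Cdc73 was the 1 call, 11 lay above 0, and the median was −0.0066. At an unadjusted p under 0.05 there were 9 of the 24, 4 higher and 5 lower.

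Among called genes of membranes, signalling and metabolism, Akt1, the kinase downstream of PI3-kinase, rose by 0.13 ± 0.031 (4063 ± 247 with fluoxetine, 3700 ± 163 with vehicle) and Cacnb3, a subunit of voltage-gated calcium channels, by 0.18 ± 0.041 (9111 ± 662 and 8060 ± 442). Dtx1, a ubiquitin ligase of the Notch pathway, rose by 0.16, Tmem259, an endoplasmic reticulum membrane protein, by 0.13, Idh3g, a subunit of the citric acid cycle enzyme isocitrate dehydrogenase, by 0.13, and the nucleotidase gene Ntpcr by 0.20. The transcribed pseudogene 2810025M15Rik rose by 0.25, and it likewise lies opposite Rasal2. Epha6, an ephrin receptor of neurons, fell by 0.30 ± 0.071 (598 ± 89.6 with fluoxetine, 734 ± 80.6 with vehicle). Far1, an enzyme of ether lipid synthesis, fell by 0.17, Tubgcp4, of the microtubule-nucleating gamma-tubulin complex, by 0.26, Ubxn7, an adaptor of the protein-extracting ATPase p97, by 0.13, and Ankrd12, an ankyrin repeat gene, by 0.16. Their adjusted p lay between 0.0318 and 0.0497.

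**Figure D2:**
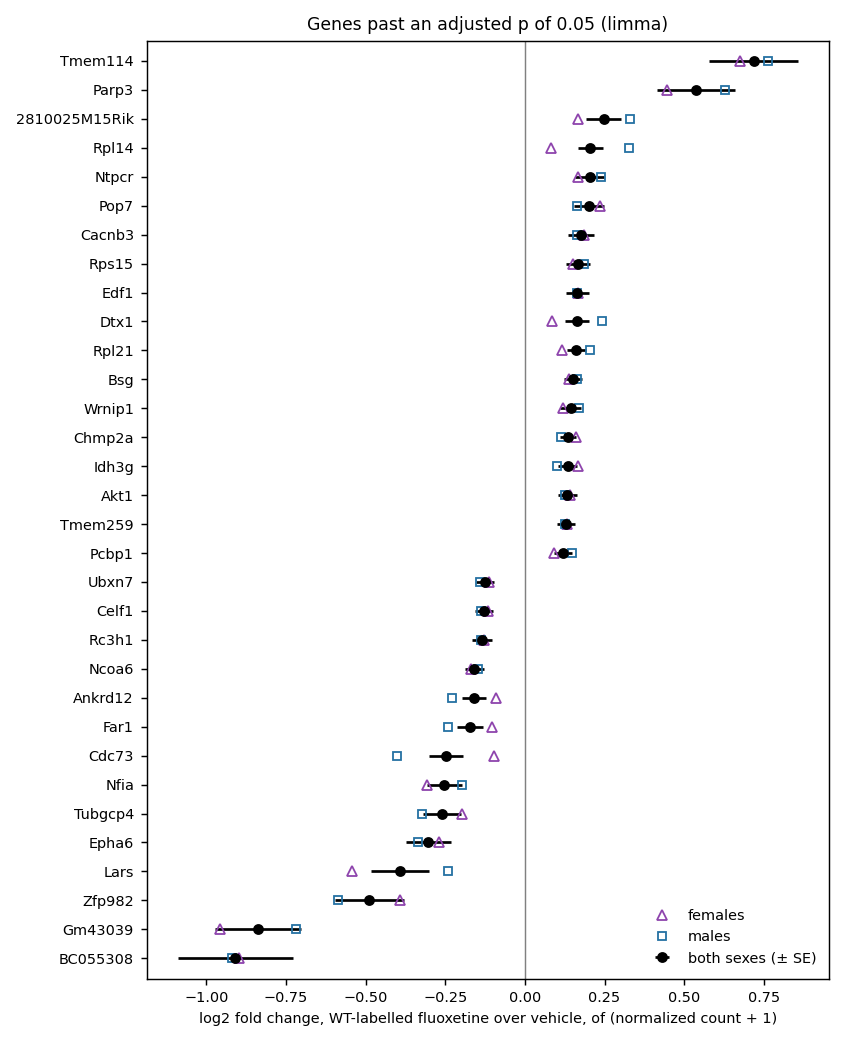
Log2 fold change of fluoxetine over vehicle for the 32 called genes in WT-labelled libraries. Filled points are both sexes with the SE, triangles females and squares males, and all 32 genes have both sexes on 1 side of 0, from −0.91 for BC055308 to 0.72 for Tmem114.

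The called genes divided by base composition. The GC content of their transcripts was 48.0 to 64.3% among the 18 higher genes (median 57.5%) and 35.6 to 49.7% among the 14 lower genes (median 41.6%), against a median of 49.8% over the tested genes. The higher genes also had shorter transcripts (median 1512 against 6032 bases, and 3056 over tested genes). The same trend ran through all genes, with median log2 fold changes of −0.054, −0.026, −0.0024, 0.024 and 0.056 over 5 equal bins of genes ordered by rising GC content. For each library, log2 levels were taken as deviations from each gene's mean over all 59 libraries and fitted on GC and log2 transcript length together. The GC slope, relative to those means, averaged 0.035 ± 0.049 log2 units per 10 points of GC with fluoxetine and −0.021 ± 0.038 with vehicle (SD, n = 10 each). The groups overlapped, with values of −0.018 to 0.11 and −0.069 to 0.043 in that order. The exact two-sided permutation test within sex gave p = 0.0141 (63504 arrangements), and the slope on transcript length gave p = 0.0167, both 0.0167 after Benjamini-Hochberg adjustment over the 2. These slopes were added after seeing the data of the same libraries, so their p-values describe the trend and are no separate support for it. HT-labelled libraries, not part of those tests, had mean GC slopes of 0.019 in females and −0.00037 in males with fluoxetine. With vehicle they had −0.0067 and 0.026 in that order.

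After the part of each library's deviation that followed GC and length had been taken off, a step chosen after seeing these data, limma called 4 genes: Gm43039 (−0.80), Rpl21 (0.17), Chmp2a (0.12) and BC055308 (−0.82), with adjusted p of 0.00462, 0.00723, 0.0380 and 0.0405. All 32 genes kept their sign. Rpl14 (0.19), Ncoa6 (−0.12) and Bsg (0.11) had adjusted p of 0.0585, 0.157 and 0.128, and Ubxn7 (−0.013) and Rc3h1 (−0.027) were close to 0. The part of GC and length in the uncorrected values was not tested further.

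**Figure D3:**
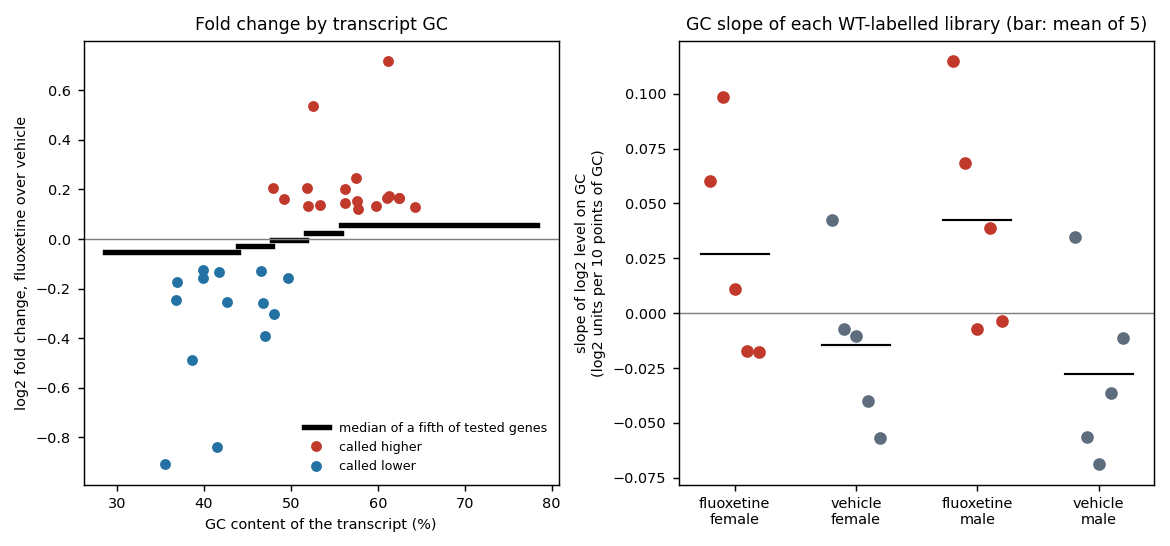
Left, log2 fold change of the called genes against transcript GC content, with the median of each of 5 GC bins of tested genes as a black line. Right, the GC slope of each WT-labelled library, relative to gene means over all 59 libraries, fluoxetine left of vehicle within each sex, with bars for means of 5. The medians climb from −0.054 to 0.056 across the bins, and the fluoxetine slopes average above the vehicle slopes with overlap.

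Gene lists were read against the share of all genes given above, and the medians after the correction against its overall median of 0.016. Members of a list can move together, so such counts are no measure of independent evidence. Cytosolic ribosomal protein genes lay mostly above 0, with 72 of 79, a median of 0.073 (0.047 in females, 0.099 in males), 3 called higher and 36 at an unadjusted p under 0.05, all of them higher. Their summed level was 282141 to 336850 with fluoxetine (median 300555) and 271785 to 300365 with vehicle (median 285563). In females 52 members lay above 0 and in males 67. The median ran from 0.055 without fluoxetine male replicate 1 to 0.088 without fluoxetine male replicate 3. In those fits 23 and 39 members had an unadjusted p under 0.05. After the correction the median was 0.057, with 70 of 79 above 0. In HT-labelled libraries it was 0.012.

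Genes of energy metabolism also lay mostly above 0, without calls. Of 76 nuclear-encoded subunits of oxidative phosphorylation, 67 lay above 0, the median was 0.050, and 21 had an unadjusted p under 0.05, all higher. Ndufv1, a core subunit of complex I, had 0.11 ± 0.025 (3793 ± 117 with fluoxetine, 3526 ± 102 with vehicle, adjusted p = 0.0536), and Cox4i1 had 0.15 ± 0.040. Of 78 mitochondrial ribosomal protein genes, 59 lay above 0 with a median of 0.046 and 13 at an unadjusted p under 0.05, led by Mrps26 of the small subunit (0.17 ± 0.043, adjusted p = 0.0668) and Mrpl4 of the large one (0.12 ± 0.038, adjusted p = 0.125). The corrected medians were 0.037 and 0.036. Lithium over the same vehicle libraries had a median of 0.045 for the oxidative phosphorylation genes and 0.0026 for the mitochondrial ribosomal ones. Fluoxetine over lithium had −0.0036 and 0.039 in that order. Of the 13 mitochondrially encoded subunits, 9 lay above 0 (median 0.074, corrected 0.15), with mt-Nd5 at 0.12 ± 0.054 and mt-Cytb at 0.11 ± 0.051 (adjusted p = 0.334 and 0.346).

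Cholesterol synthesis genes lay mostly below 0. The brain makes its own cholesterol, since plasma lipoproteins do not cross the blood-brain barrier, and the transcription factor Srebf2 switches on the enzymes together with Insig1 when sterols are scarce. Of 24 genes, 22 lay below 0, the median was −0.097 (−0.15 in females, −0.10 in males), 12 had an unadjusted p under 0.05, all lower, and 0 were called. The lowest value of the summed level was 48273 with fluoxetine (median 53047, highest 56513), against 51521 with vehicle (median 57561, highest 59751). After the GC and length correction 24 of 24 lay below 0, with a median of −0.089 and 9 at an unadjusted p under 0.05, all lower (2.72% of all genes). With the olfactory bulb marker level as covariate the median was −0.14. In that fit 7 members were called lower, against 0.238% of all genes. Members called were 0 after the GC and length correction, 0 when striatal markers served as covariate and 0 in the fit of the 20 libraries alone. A block for replicate number gave 1 called member, as did leaving out fluoxetine male replicate 5.

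Stard4, a sterol transfer protein, had 882 to 1025 with fluoxetine (median 960) and 1003 to 1272 with vehicle (median 1098). The groups overlapped narrowly, and the difference was −0.21 ± 0.054 (adjusted p = 0.0630). Sqle, squalene epoxidase, a rate-limiting enzyme, had 1756 to 2205 with fluoxetine (median 1962) and 2048 to 2391 with vehicle (median 2209), a difference of −0.17 ± 0.052 (adjusted p = 0.136). The isopentenyl diphosphate isomerase gene Idi1 had −0.16 ± 0.054 and Insig1, the sterol-sensing brake of the pathway, −0.13 ± 0.043 (adjusted p = 0.162 and 0.153), genes named after their values were seen. Srebf2 itself had −0.071 ± 0.036 (adjusted p = 0.402). In HT-labelled libraries, which share no library with these, 20 of 24 genes lay below 0 with a median of −0.089. For the difference of the WT-labelled and HT-labelled effects, 1 of 24 had an unadjusted p under 0.05 (6.18% over all genes) and 0 were called.

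Promoter windows of genes from both lists are shown because most of their members lay on 1 side of 0. The windows come from RefSeq in GRCm38.p6 and run from 250 bases before to 50 after the gene start, 1 for each of 27025 genes. Windows were at hand for 17 of the 24 cholesterol genes and 58 of the 79 ribosomal protein genes. The letters CCAAT, on either strand, were in 15 of the 17 (88.2%), in 18 of the 58 (31.0%) and in 37.9% of all windows. The letters CGGAAG, the core that ETS factors bind, were in 4 of the 17 (23.5%), in 40 of the 58 (69.0%) and in 17.2% of all windows. The sterol element TCACNCCAC was in 1 of the 17 (Hmgcs1), in 0 of the 58 and in 1.22% of all windows. No motif contains another, and each was counted on its own. The GC content of the windows was 61.8%, 57.6% and 53.6% in the order cholesterol, ribosomal protein and all. Capitals mark these letters below, ATTGG and CTTCCG being the same motifs on the other strand.
Idi1 (chr13:8885356-8885655, plus strand): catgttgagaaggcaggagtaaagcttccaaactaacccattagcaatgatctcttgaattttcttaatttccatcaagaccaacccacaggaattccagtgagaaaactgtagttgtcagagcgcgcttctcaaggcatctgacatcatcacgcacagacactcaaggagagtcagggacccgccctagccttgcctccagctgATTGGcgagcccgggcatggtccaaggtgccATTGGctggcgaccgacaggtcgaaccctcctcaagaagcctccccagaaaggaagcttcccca
Insig1 (chr5:28071162-28071461, plus strand): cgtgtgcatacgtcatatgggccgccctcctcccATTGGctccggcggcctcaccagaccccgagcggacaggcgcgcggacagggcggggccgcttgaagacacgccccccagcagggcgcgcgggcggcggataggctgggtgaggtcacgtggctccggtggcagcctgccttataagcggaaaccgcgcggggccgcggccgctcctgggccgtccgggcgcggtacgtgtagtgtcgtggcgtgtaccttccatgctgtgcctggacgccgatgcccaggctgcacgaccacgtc
Rps15 (chr10:80292181-80292480, plus strand): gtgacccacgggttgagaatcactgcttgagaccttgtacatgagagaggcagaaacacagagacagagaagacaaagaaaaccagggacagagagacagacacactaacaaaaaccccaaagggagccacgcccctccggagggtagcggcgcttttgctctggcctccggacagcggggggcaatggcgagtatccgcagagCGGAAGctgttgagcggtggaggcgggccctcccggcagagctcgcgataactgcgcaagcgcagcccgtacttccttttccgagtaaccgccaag
Rpl14 (chr9:120571267-120571566, plus strand): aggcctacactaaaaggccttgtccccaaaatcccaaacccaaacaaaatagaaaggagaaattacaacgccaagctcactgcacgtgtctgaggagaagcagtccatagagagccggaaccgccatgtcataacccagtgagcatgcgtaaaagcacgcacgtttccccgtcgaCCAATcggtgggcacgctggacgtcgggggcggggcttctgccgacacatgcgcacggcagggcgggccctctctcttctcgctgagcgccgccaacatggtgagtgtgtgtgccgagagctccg
A match of letters is a description of the window and says nothing of which factor was bound there.

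Serotonin genes, the direct targets of the drug and its partners, held no called member. Slc6a4, which encodes the serotonin transporter, had 0 to 8.17 normalized counts with fluoxetine and 0 to 25.0 with vehicle and fell under the level needed for testing, as did the receptor gene Htr2b. The other 18 of 20 genes had a median of −0.035, with 8 above 0 and 2 at an unadjusted p under 0.05, both lower. Htr2c, the Gq-coupled 2C receptor, had 773 to 1693 with fluoxetine (median 1202) and 976 to 2106 with vehicle (median 1758), a difference of −0.40 ± 0.15 (adjusted p = 0.214) with wide overlap. Htr1d, an inhibitory receptor of nerve endings, had −0.65 ± 0.30 (36.4 ± 19.1 with fluoxetine, 63.3 ± 45.0 with vehicle, adjusted p = 0.346). Htr1a and Htr2a, the main cortical receptors, had −0.076 ± 0.10 and 0.044 ± 0.074 (adjusted p = 0.804 and 0.838).

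Neuronal signalling lists had 0 calls each, with medians from −0.054 to 0.058. The 41 glutamate receptor and scaffold genes had a median of 0.011 (24 above 0), with the kainate receptor gene Grik5 at 0.12 ± 0.038 and the AMPA receptor gene Gria2 at −0.12 ± 0.039 (adjusted p = 0.130 and 0.140). After the GC and length correction Gria2 had 0.0074. The 19 GABA signalling genes had a median of −0.022 (8 above 0), with Gabrd, a subunit of extrasynaptic receptors, at 0.15 ± 0.069 and Gabra2 at −0.16 ± 0.076. Of the neurotrophin list, 14 of 16 genes were tested (median 0.0065, 7 above 0), with the transcription factor gene Creb1 at −0.12 ± 0.052 and the sortilin-family receptor gene Sorcs2 at −0.10 ± 0.069. The 18 immediate early genes, switched on by neuronal activity, had a median of 0.058 (10 above 0, corrected 0.0063), with the transcription factor gene Egr3 at 0.25 ± 0.14 and the phosphatase gene Dusp6 at 0.22 ± 0.17. That median ran from −0.040 without fluoxetine male replicate 1 to 0.17 without vehicle female replicate 1. The 15 perineuronal net genes had a median of −0.054 (5 above 0), with Adamts4 at −0.27 ± 0.15 and Crtac1 at −0.16 ± 0.099. Their median ran from −0.11 without fluoxetine male replicate 5 to −0.034 without vehicle female replicate 4.

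Stress and housekeeping lists had 0 calls each as well. Glucocorticoid response genes had a median of 0.023 (11 of 18 above 0), with Cdkn1a, a cell cycle inhibitor, at 0.17 ± 0.097 and the mineralocorticoid receptor gene Nr3c2 at −0.087 ± 0.048. Circadian clock genes had a median of −0.0078 (8 of 19 above 0), with the repressor gene Nr1d2 at −0.064 ± 0.031 and Clock at −0.061 ± 0.039. Lysosomal genes had 0.014 (19 of 30 above 0), with the membrane protein gene Lamp1 at 0.067 ± 0.026 and the cathepsin gene Ctsd at 0.083 ± 0.032. Genes of endoplasmic reticulum stress and amino acid shortage had 0.015 (14 of 23 above 0, Trib3 not tested), with the chaperone genes Sdf2l1 at 0.20 ± 0.099 and Canx at −0.067 ± 0.030. Interferon and antigen presentation genes had −0.028 (9 of 20 above 0), with Stat2 at −0.16 ± 0.062 and Ifit2 at −0.17 ± 0.085. Of 48 primary cilium genes, 47 were tested, without Tctn2 (median −0.027, 16 above 0), and Ttc8, of the BBSome, had −0.23 ± 0.071 and Cep290, of the transition zone, −0.20 ± 0.064 (adjusted p = 0.127 and 0.140). The elongation kinase gene Cdk9 had 0.11 ± 0.038 (adjusted p = 0.178).

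**Figure D4:**
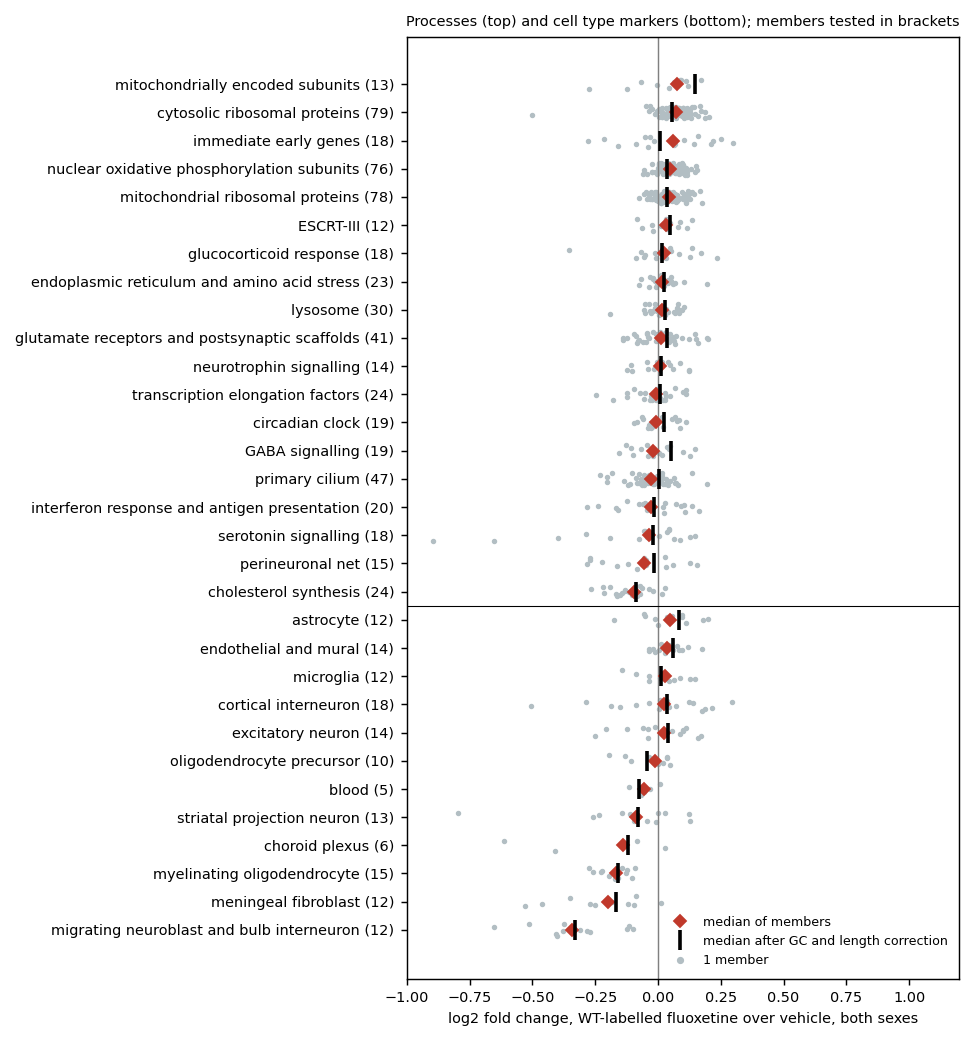
Log2 fold changes in WT-labelled libraries of the tested members of 31 gene lists (grey), with their median (red) and their median after the GC and length correction (black), processes above cell type markers. The olfactory bulb list, with a median of −0.86 and values from −1.17 to −0.69, lies partly outside the axis and is left out. The cytosolic ribosomal protein and cholesterol synthesis lists stand on opposite sides of 0 in both versions.

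Markers of cell types were checked beside these groups, since in bulk tissue fewer cells of a type and less RNA per cell cannot be told apart. None of the 13 lists held a called gene, and no marker was at 0 in all 20 libraries. Myelin genes, made by oligodendrocytes, were below 0 for 15 of 15, with −0.17 as their median, yet 1 had an unadjusted p under 0.05, the lipid synthesis gene Ugt8a (−0.28 ± 0.13, adjusted p = 0.357). Aspa, an enzyme of oligodendrocytes, had −0.23 ± 0.12 (adjusted p = 0.427). The fluoxetine libraries were spread more widely, with mean log2 levels of 10.5 to 12.1 (median 11.3) against 11.3 to 11.8 with vehicle (median 11.5). The list's median ran from −0.27 without fluoxetine male replicate 2 to −0.077 without fluoxetine male replicate 3. In the HT-labelled libraries all 15 genes lay above 0 (median 0.32), with levels of 11.4 to 12.2 with fluoxetine (median 11.95) and 11.1 to 11.9 with vehicle (median 11.5). The WT-labelled minus HT-labelled effect had a median of −0.49, with 12 of 15 at an unadjusted p under 0.05 against 6.18% of all genes, and limma called 0 (smallest adjusted p in the list 0.653). These 15 genes move together, so their number is no measure of independent evidence.

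Markers of tissue bordering the cortex differed in level between libraries. The 5 olfactory bulb genes had a median of −0.86, −1.50 in females and −0.27 in males, running from −1.33 without vehicle female replicate 3 to −0.42 without fluoxetine male replicate 3. Their summed level was 216 to 7754 with fluoxetine (median 885) and 352 to 10228 with vehicle (median 2968), with Cdhr1 at −1.05 ± 0.81 and Eomes at −1.17 ± 1.21. The 12 neuroblast and bulb interneuron genes lay below 0 throughout (median −0.34, −0.68 in females and 0.0055 in males), with Dlx5 at −0.38 ± 0.34 and Sp9 at −0.40 ± 0.42. Their summed level was 9323 to 27256 with fluoxetine and 10097 to 26679 with vehicle. Meningeal fibroblast genes had a median of −0.20 (11 of 12 below 0), with Lum at −0.53 ± 0.20 and Col1a1 at −0.46 ± 0.23, and −0.079 without fluoxetine male replicate 1. Their summed level was 6355 to 12056 with fluoxetine and 8363 to 23089 with vehicle. Striatal genes had a median of −0.086 (9 of 13 below 0), with Rxrg at −0.14 ± 0.16 and Six3 at −0.79 ± 0.99, and 0.080 without vehicle female replicate 5. Choroid plexus genes had −0.14 (5 of 6 tested below 0, Folr1 and Kcne2 not tested), with Aqp1 at −0.61 ± 0.55 and Kl at −0.13 ± 0.18. Blood genes had −0.055 (4 of 5 below 0, with −0.29 in females and 0.20 in males), with Alas2 at −0.12 ± 0.26 and Hbb-bt at −0.066 ± 0.24. Leaving out fluoxetine male replicate 1 gave a blood median of 0.072, and leaving out replicate 4 of that group gave −0.12. That of choroid plexus genes was −0.30 without replicate 5 of fluoxetine males and −0.047 without their replicate 1, and that of neuroblast genes −0.50 without fluoxetine male replicate 1 and −0.21 without vehicle male replicate 5. With the olfactory bulb level as covariate limma called 91 genes, and with the striatal level 50. All 32 genes kept their sign under both.

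The remaining cell types had medians within 0.05 of 0. Excitatory neuron markers had 0.023 (7 of 14 above 0), with the deep-layer factors Bcl11b at −0.21 ± 0.091 and Foxp2 at −0.25 ± 0.17. Cortical interneuron markers had 0.024 (12 of 18 above 0), with Lamp5 at 0.29 ± 0.10 and the peptide gene Cck at 0.22 ± 0.096. Astrocyte markers had 0.046 (7 of 12 above 0), with the glycolytic enzyme Aldoc at 0.18 ± 0.052 and the folate enzyme Aldh1l1 at 0.20 ± 0.067 (adjusted p = 0.10 and 0.165). Oligodendrocyte precursor markers had −0.013 (5 of 10 above 0), with Lhfpl3 at −0.20 ± 0.14 and Enpp6 at −0.13 ± 0.11. Microglial markers had 0.026 (8 of 12 above 0), with the complement gene C1qb at 0.13 ± 0.046 and the receptor gene Trem2 at 0.15 ± 0.094. Endothelial and mural markers had 0.036 (10 of 14 above 0), with the tight junction gene Cldn5 at 0.18 ± 0.090 and the transporter gene Abcb1a at 0.085 ± 0.053.

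**Figure D5:**
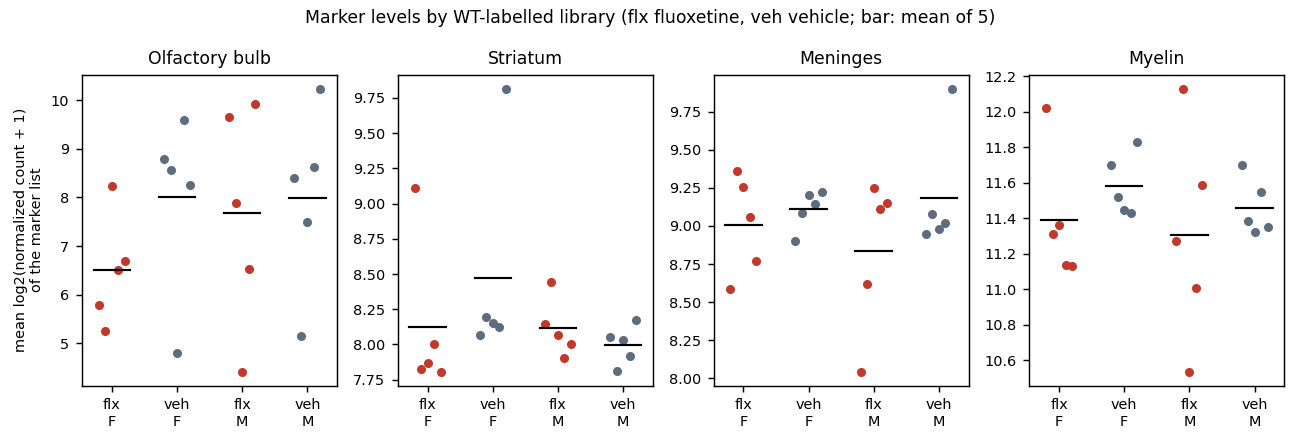
Mean log2(normalized count + 1) of 4 marker lists in each WT-labelled library, fluoxetine (red) left of vehicle (grey) within each sex, with bars for means of 5. Olfactory bulb levels range over 4.42 to 9.92 with fluoxetine and 4.81 to 10.2 with vehicle, single libraries stand apart for striatum and meninges, and myelin levels spread more with fluoxetine.

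The sexes taken alone gave fewer calls. In females limma called 0 genes (1310 at an unadjusted p under 0.05, 7.78%, smallest adjusted p 0.114), and in males 5 (0.0297%, 2 higher and 3 lower, with 1584 or 9.41% at an unadjusted p under 0.05). Of the 32 genes, 27 had an unadjusted p under 0.05 in females and 31 in males, counts that support nothing, since the genes were chosen on the same libraries. The test of the difference between the sexes called 0 genes (814 at an unadjusted p under 0.05, 4.83%, smallest adjusted p 0.834). The 3 genes with the smallest p were Rpgrip1l, a ciliary gene (0.078 in females, −0.32 in males), Usmg5, a subunit of ATP synthase (−0.23 and 0.072), and Cdc26, of the anaphase-promoting complex (−0.25 and 0.20).

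Against the HT-labelled mice, the fluoxetine effect was tested directly. HT-labelled libraries gave 0 called genes for fluoxetine over vehicle (857 at an unadjusted p under 0.05, 5.09%). The WT-labelled minus HT-labelled difference gave 0 calls as well (1040, 6.18%, smallest adjusted p 0.607). Of the 32 genes, 22 had the same sign in HT-labelled libraries and 5 had an unadjusted p under 0.05 there: Rpl14 (0.12), Rps15 (0.092), Edf1 (0.079), Cdc73 (−0.17) and Ncoa6 (−0.073). The share of same signs over all tested genes is not given here, so the count of 22 stands without a background. In the difference 25 of the 32 had an unadjusted p under 0.05, a count that supports nothing, since they were chosen on the WT-labelled libraries. The 3 genes with the smallest p in the difference were Nfia (−0.25 in WT-labelled, 0.062 in HT-labelled), the Wnt ligand gene Wnt2b (−0.31 and 0.36) and the gene model Particl (0.17 and −0.20).

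Against lithium in WT-labelled mice, which shares the fluoxetine libraries with the comparison above, limma called 990 genes (5.88%, 500 higher and 490 lower with fluoxetine). Lithium over vehicle gave 36 (0.214%, 22 higher and 14 lower), 0 of them among the 32. Tmem114 had 0.58 ± 0.14 with lithium over vehicle (adjusted p = 0.0588), and fluoxetine over lithium was 0.14 (adjusted p = 0.614). Both drugs are set against the same vehicle libraries, on which Tmem114 was also chosen, so its rises with each are not independent. Vstm2l, a secreted immunoglobulin-domain protein gene, had 1766 ± 256 with fluoxetine and 1205 ± 153 with lithium (1431 ± 140 with vehicle, SD, n = 10 each), a difference of 0.55 ± 0.071 (adjusted p = 6.40e-06). C1qtnf4, a secreted C1q-family gene, had 2451 ± 203 with fluoxetine and 1866 ± 217 with lithium, and Dmwd, a WD-repeat gene, 3679 ± 130 and 3214 ± 137 in the same order (0.40 and 0.20, both adjusted p = 2.19e-05). Lower with fluoxetine were Slc5a3, the sodium/myo-inositol cotransporter gene, with 903 ± 61.9 against 1145 ± 93.7 (−0.34 ± 0.051, adjusted p = 5.21e-05), Castor2, a gene of the mTORC1 pathway (−0.25), and Sesn3, a sestrin stress gene (−0.16). Of these 6, Sesn3 alone was not called after the GC and length correction (adjusted p = 0.128), which left 270 genes. The correction reduced the differences of Vstm2l to 0.33, C1qtnf4 to 0.16, Dmwd to 0.098 and Sesn3 to −0.088, while Slc5a3 had −0.25 and Castor2 −0.23. Lithium libraries had GC slopes of −0.060 to 0.032 (median −0.027), against −0.018 to 0.11 with fluoxetine (median 0.025). Of the 24 cholesterol genes 6 were called lower with fluoxetine than with lithium (2.91% of all genes), and of the 79 cytosolic ribosomal protein genes 11 were called higher (2.97% of all genes).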

How the data were processed

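Prefrontal cortex RNA was made into libraries with a TruSeq Stranded mRNA kit (per the labels). The authors deposited 1 table over 51456 genes, whose unit is a normalized signal: estimated counts rescaled so that libraries can be compared. Salmon 0.11.2, R 3.6.0, DESeq2 1.19.11 and GRCm38 were used, per the submitters' processing notes, which give no roles. The values are not whole reads, so no count model was fitted, although the unit had not been known when the tests were written. Salmon divides reads among similar transcripts, which makes genes with near-identical copies uncertain.

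Differences were tested with limma 3.58.1 under R 4.3.3, with statmod 1.5.0 for the robust step. The scale was log2(value + 1), for the 16839 genes with a mean of at least 10. The model had a mean for each of the 12 groups of 59 libraries, trend and robust shrinkage, and Benjamini-Hochberg adjustment. The pooled contrast is the mean of the female and the male difference, which puts sex in as a block. On simulated data for this contrast, changes were added to some of the 16839 genes. The test found 43.3% of genes shifted by 0.25, 71.6% of those shifted by 0.5 and 95.5% of those shifted by 1 (log2), with 5 false calls among 145. Each simulated gene varied independently, without the trends that genes of a real library share. These shares therefore need not hold for the real libraries. Transcript GC and length came from GENCODE M21, for 16828 tested genes, and the correction took off, per library, a spline of 5 degrees of freedom on each. Alternatives were no shrinkage trend, TMM (trimmed mean of M values) factors computed in R, no filter, a pseudocount of 0.5, the 20 libraries alone, the replicate number as a block, bulb or striatal marker covariates, each library left out in turn and, added later, the GC and length correction.

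Members, the 19 process and 13 cell type lists and the tests were chosen with earlier results of these data known. Named genes were all called genes, the 2 members of each list with the smallest p, up to 6 called genes (3 by p where none) in the sex, genotype and lithium comparisons, and Chd8. Figures used Python 3.11.15 with matplotlib 3.10.9. Values of some single list members are not reported here.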

Additional observations from a re-analysis of the deposited data

Results flagged for a closer look

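Within the groups of 5 libraries, a library was listed where its gap to the nearest other, divided by the group's range, passed Dixon's 95% critical value of 0.71. This held for 46 of 448 groups tested (104 genes and 8 library measures in 4 groups), where chance gives about 1 in 20. Values are normalized counts unless they are mean log2 levels of a marker list, and the range of the other 4 libraries follows each. No explanation was tested.

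In fluoxetine female replicate 1, these stood apart, Enpp6 at 708 (413 to 498), Six3 at 26.8 (0 to 1.9), the mean log2 level of the list striatal projection neuron at 9.11 (7.81 to 8.01) and the mean log2 level of the list myelinating oligodendrocyte at 12.02 (11.1 to 11.4). In fluoxetine female replicate 2, these stood apart, Nfia at 1068 (1213 to 1268), Pop7 at 319 (385 to 405), Cacnb3 at 10084 (8668 to 8891) and Mrpl4 at 1032 (1074 to 1088). In fluoxetine female replicate 3, these stood apart, Lars at 1445 (914 to 1048), Cdhr1 at 1300.2 (184 to 486), Eomes at 198 (13.0 to 38.3) and Aqp1 at 66.8 (21.3 to 33.7). In fluoxetine female replicate 4, this value stood apart, Mrps26 at 1138 (1193 to 1214). In fluoxetine female replicate 5, these stood apart, Htr1d at 76.5 (20.9 to 34.7) and Cdkn1a at 1167 (1247 to 1268). In fluoxetine male replicate 2, these stood apart, Lamp1 at 11082 (9731 to 10113), Canx at 11322 (10665 to 10767) and Six3 at 7.65 (0 to 1.25). In fluoxetine male replicate 4, this value stood apart, Zfp982 at 33.8 (49.7 to 53.8). In fluoxetine male replicate 5, these stood apart, Tmem259 at 2851 (2982 to 3006), Wrnip1 at 1539.7 (1730.4 to 1785), Gabrd at 1568 (2047 to 2169), Kl at 193 (43.4 to 58.3) and the mean log2 level of the list choroid plexus at 7.51 (4.11 to 4.92).

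In vehicle female replicate 1, this value stood apart, Dusp6 at 2457 (1462 to 1689.9). In vehicle female replicate 3, this value stood apart, the mean log2 level of the list olfactory bulb projection neuron at 4.81 (8.25 to 9.59). In vehicle female replicate 4, these stood apart, Alas2 at 281 (130 to 168) and Hbb-bt at 1466 (802 to 963). In vehicle female replicate 5, these stood apart, Rxrg at 354 (212 to 228), Six3 at 114 (1.02 to 5.99), Rpgrip1l at 1019 (848 to 896) and the mean log2 level of the list striatal projection neuron at 9.82 (8.06 to 8.2). In vehicle male replicate 1, these stood apart, Bsg at 12375 (11166 to 11394), Edf1 at 2285 (2155 to 2183), Cacnb3 at 8807 (7919 to 8175), Dusp6 at 2223 (1502 to 1711) and Gabra2 at 2310.3 (2793 to 2869). In vehicle male replicate 2, this value stood apart, Aspa at 237 (288 to 298). In vehicle male replicate 4, these stood apart, Htr1d at 167 (15.7 to 51.9) and Sesn3 at 7393 (6548 to 6757). In vehicle male replicate 5, these stood apart, Clock at 3758 (4043 to 4120.4), Lum at 320 (84.6 to 135), Col1a1 at 7053 (556 to 815), Eomes at 884 (10.7 to 255), Aqp1 at 296 (32.3 to 84.4) and the mean log2 level of the list meningeal fibroblast at 9.9 (8.95 to 9.08).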

How the results depend on the processing

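For fluoxetine over vehicle in both sexes, the 32 calls became 17 without shrinkage trend and robust fitting, 8 with no filter, 91 with the olfactory bulb covariate, 50 with the striatal covariate, 0 with the 20 libraries alone and 4 with the GC and length correction, which was chosen after seeing the data. TMM factors gave 44 and a pseudocount of 0.5 gave 32. With single libraries left out the count ran from 9 to 230. Why these counts moved was not tested. The 20-library fit differed both in having fewer libraries to estimate the spread and in its model, a common drug effect with sex as a block. The 5 calls in males became 3 without trend, 3 with TMM, 10 with the bulb covariate, 0 with the libraries of the contrast alone and 1 with the GC and length correction, and 1 to 106 with a library left out. The 0 calls in females became 1 without trend and 1 with its own libraries, and 0 to 1 with a library left out. The 990 calls against lithium became 591 with no filter, 1679 with the bulb covariate and 270 with the GC and length correction, and 647 to 1345 with a library left out. The sex difference and the WT-labelled minus HT-labelled difference gave 0 calls under every alternative run.

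The replicate number as a block gave 113 calls in both sexes and 8 in males. The labels do not say that a number marks anything shared, so the libraries are taken as unpaired. Of 30 same-numbered pairs over the 4 groups, 8 had correlated deviations over 0.1 (from −0.19 to 0.38). Of the 10 pairs of fluoxetine and vehicle libraries of 1 sex, 3 did, all male. Of the 20 libraries, 4 correlated best with their own number in the other treatment group of their sex, where each had 5 libraries that it could match by chance.

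Among the named genes alone, signs turned for 5 uncalled ones with the GC and length correction: Nr1d2 (0.0053), Clock (0.042), Gria2 (0.0074), Sesn3 (0.0051) and Chd8 (0.033). With a library left out, Alas2 ran from −0.22 to 0.046, Hbb-bt from −0.16 to 0.062 (0.0061 without vehicle female replicate 4), Cdc26 from −0.052 to 0.0052 and Chd8 from −0.051 to 0.022. The cause was not tested. Medians of lists near 0 also changed sign with a library left out, among them serotonin (−0.048 to 0.0020), GABA (−0.035 to 0.011), clock (−0.031 to 0.017), glucocorticoid (−0.0057 to 0.041), interferon (−0.062 to 0.028) and elongation factor genes (−0.016 to 0.0058). Depth limits the low genes most: Gm43039, BC055308 and Slc6a4 had at most 44.7 normalized counts in any of the 20 libraries.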
